A study of Homo sapiens with 4 samples.

Results

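The genes described here encode the aminoacyl-tRNA synthetases, the enzymes that join each amino acid to its transfer RNA. They were taken as every protein-coding gene whose symbol is a single letter followed by ARS, ARS1 or ARS2, together with EPRS1, FARSA and FARSB. The rule found 37 of the 61541 gene rows in each library. Of these, 20 encode cytosolic enzymes and 17, those with the suffix 2, mitochondrial enzymes. RNA came from H1299, an established human lung carcinoma line grown with serum. The treated cells had received nanoparticles made from fresh ginseng by grinding and extrusion, and the control cells phosphate-buffered saline (PBS), with 2 libraries of polyadenylated RNA in each group. The labels give no dose or exposure time and do not say whether seeds, leaves, stems or roots were the source here, and their titles call the nanoparticle libraries control as well, so the treatment label was followed. Nothing says that replicates came from separate cultures, so p-values reflect only how far these libraries spread, and that spread may be technical. In bulk RNA, fewer cells of a type and less RNA per cell cannot be told apart. The study as a whole concerned the inhibition of cancer cell migration by these particles.

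A synthetase activates its amino acid with ATP and passes it to the matching tRNA, and the charged tRNA is then carried to the ribosome by an elongation factor. Cytosol and mitochondria use largely separate sets of enzymes, all encoded in the nucleus. KARS1 and GARS1 are exceptions, since each gene gives a cytosolic and a mitochondrial form, and EPRS1 carries the glutamate and proline enzymes in 1 protein. Phenylalanine is charged in the cytosol by an enzyme of 2 subunits, FARSA and FARSB. Several cytosolic enzymes are held in a multisynthetase complex by the scaffold proteins AIMP1, AIMP2 and EEF1E1. When tRNAs lack their amino acids the kinase GCN2 phosphorylates eIF2, which favours translation of the transcription factor ATF4, and many cytosolic synthetase genes are known ATF4 targets.

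ATF4 binds, with partners of the C/EBP family, a response element with the core TGATGNAA. This core was searched on both strands of the promoter windows of RefSeq (250 bases before to 50 bases after the start of each gene, build GRCh38.p14), to show where its letters occur among the members. Windows were found for 30 of the 37 members. The core was present in 6 of 16 cytosolic windows (37.5%) and in 1 of 14 mitochondrial windows (7.14%). Of all 27305 windows searched, 3.67% held it. A match describes letters only and is not evidence of binding. Of the 7 matches 6 are given 5′ to 3′ on the strand of the gene, with 14 bases to each side and the 8 bases of the core, or of its reverse complement TTNCATCA, in capitals.
AARS1, chr16:70289672-70289707, minus strand: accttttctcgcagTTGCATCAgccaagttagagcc
CARS1, chr11:3057404-3057439, minus strand: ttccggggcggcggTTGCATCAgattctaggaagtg
MARS1, chr12:57488050-57488085, plus strand: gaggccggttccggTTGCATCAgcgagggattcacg
NARS1, chr18:57621801-57621836, minus strand: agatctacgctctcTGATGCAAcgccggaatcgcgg
TARS1, chr5:33440953-33440988, plus strand: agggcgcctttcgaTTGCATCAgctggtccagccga
YARS2, chr12:32756073-32756108, minus strand: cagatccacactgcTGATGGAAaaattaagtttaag
The cytosolic matches printed here shared the same 8 letters, read on one strand or the other, and the match of the mitochondrial gene YARS2 differed from them.

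HARS1 and HARS2, the cytosolic and mitochondrial histidine enzymes, are neighbours on chromosome 5 that are transcribed away from each other. Their RefSeq start sites lie at 140691370 and 140691455, and the stretch around them is shown because both genes are read from it. It is given on the plus strand, the strand of HARS2, with the 84 bases between the start sites in capitals.
HARS1/HARS2, chr5:140691311-140691504: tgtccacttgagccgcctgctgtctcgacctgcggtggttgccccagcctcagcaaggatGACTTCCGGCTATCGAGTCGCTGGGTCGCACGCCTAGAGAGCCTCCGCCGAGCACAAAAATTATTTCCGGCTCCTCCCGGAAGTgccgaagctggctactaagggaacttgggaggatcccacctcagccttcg
The element core was found in neither of these windows.

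Depth on genes was 24979081 and 24863313 counts in the nanoparticle libraries and 22252686 and 22456882 counts in the PBS libraries. Reads that fell on more than 1 gene were set aside by the counting, and made up 4.78% to 4.81% of reads in the 4 libraries. The cells expressed the mesenchymal filament gene VIM (2185.7 to 2387.6 CPM, the count per scaled library size) and the keratin genes KRT8 and KRT18. With nanoparticles all 3 fell, by at most 0.16 on the log2 scale. Each passed at 0.05 (edgeR adjusted p = 0.0137 for VIM, 0.024 for KRT8 and 0.000526 for KRT18). These calls were not followed singly under other processing. Without a low-count filter in edgeR no gene in the transcriptome passed, so they were lost there. The cells had at most 8 counts of the epithelial genes CDH1 or EPCAM in any library. Of 12 markers of other cell types, only COL1A1 had enough counts to be tested, at 21 or fewer per library.

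All 37 synthetase genes had enough counts to be tested, 36 of them with a mean of at least 50 counts. At a threshold of 0.05 none passed edgeR's quasi-likelihood test after Benjamini-Hochberg adjustment over 15778 genes. Across all genes tested 2.58% passed (1.75% higher and 0.83% lower with nanoparticles), which would correspond to 0.955 of 37 genes, so the absence of calls among the members is close to the background and is not a result particular to them. Among the 5077 genes with a mean of at least 50 CPM, 5.4% passed. At an unadjusted p under 0.05 the members numbered 2, FARSB and MARS2, against 16.8% of all genes. After adjustment 0 members passed by DESeq2 or limma-voom, where 90 and 424 of all 15778 genes did. At an unadjusted p under 0.05 the members numbered 0 by DESeq2 and 2 by limma-voom. Over all 15778 genes these counts were 942 by DESeq2 and 2667 by limma-voom. Intervals from edgeR's fit are given below for each mRNA, for the cytosolic and mitochondrial enzymes apart. They rest on that model and on the spread of 2 libraries per group, which may be technical. They therefore do not bound the effect of treatment across separate cultures.

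The cytosolic synthetase mRNAs were nearly level between the groups. Their 20 log2 fold changes ran from -0.093 for FARSB to 0.041 for NARS1, with a median of -0.013, against 0.00056 over all genes tested. Standard errors were between 0.026 and 0.041. The 95% intervals of all 20 lay within 0.2 of 0 on the log2 scale, and those of 12 within 0.1. The outermost bounds were a change of -11.04% for FARSB and a gain of 8.37% for CARS1. Each interval is for 1 gene at a time and reflects the spread of these libraries only. The log2 fold change was below 0 for 14 members and above 0 for 6, a tally that moved with the scaling and the libraries. It was 17 and 3 with upper-quartile scaling or without PBS replicate 2, 11 and 9 without PBS replicate 1, and 10 and 10 without a low-count filter.

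**Figure D1:**
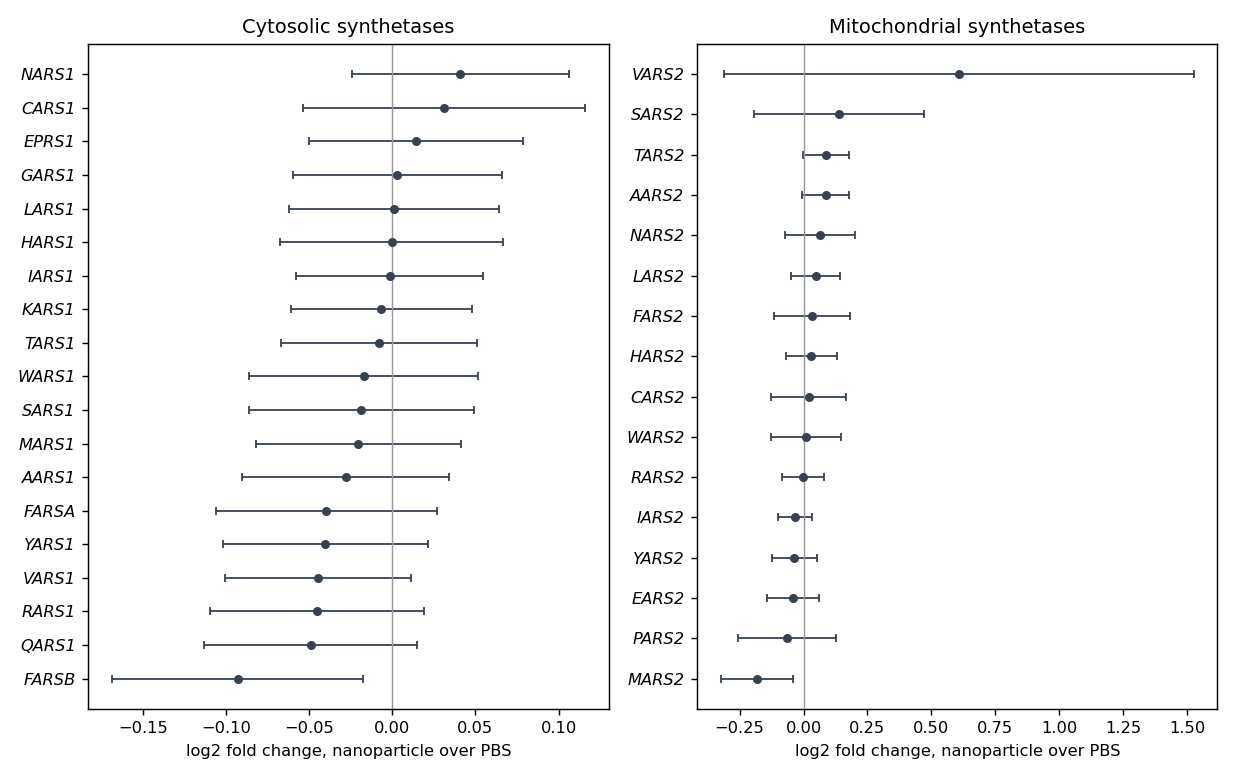
Log2 fold change of 19 cytosolic and 16 mitochondrial synthetase mRNAs, nanoparticle over PBS, from edgeR's fit (points) with 95% intervals (bars), cytosolic at left and mitochondrial at right on different axes. The intervals of FARSB and MARS2 lie below 0, all others span 0, and VARS2, with 6 to 12 counts per library, has the widest interval.

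FARSB, the beta subunit of the phenylalanine enzyme (chromosome 2, 222570536 to 222656337, minus strand, GRCh38), had the smallest p of the cytosolic members. It stood at 131 and 136 CPM in the nanoparticle libraries, against 145 and 139.5 CPM in the PBS libraries. Both nanoparticle values were below both PBS values, but the gap between the nearest values of the groups was smaller than the difference between replicates in either group. The log2 fold change was -0.093 (SE 0.036, 95% interval -0.17 to -0.017, edgeR adjusted p = 0.19). Over 15 alternatives in processing it ran from -0.12 to -0.066 and never passed, with a lowest adjusted p of 0.0899. FARSA, the alpha subunit, stood at 246 and 242 CPM in nanoparticle libraries and at 247 and 254 CPM in PBS libraries. Its log2 fold change was -0.040 (SE 0.032). The protein holds equal numbers of the subunits, and per kilobase of transcript the FARSA level was 3.48 and 3.31 times that of FARSB in nanoparticle libraries, against 3.16 and 3.39 times in PBS libraries, so the groups overlapped in this ratio.

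For the enzymes of the valine, glutamine and arginine tRNAs the differences were smaller. VARS1 had 518 and 505 CPM in nanoparticle libraries and 523 and 533 CPM in PBS libraries (log2 -0.045, SE 0.027, edgeR adjusted p = 0.424). QARS1, which is held in the multisynthetase complex, had 265 and 268 CPM in nanoparticle libraries, against 273 and 279 CPM in PBS libraries (log2 -0.049, SE 0.031, edgeR adjusted p = 0.452). For VARS1 and for QARS1 the groups did not overlap, with the nanoparticle values the lower ones. RARS1, another member of that complex, had 312 and 322.5 CPM in nanoparticle libraries and 333 and 322.3 CPM in PBS libraries, so that the groups overlapped (log2 -0.045, SE 0.031, edgeR adjusted p = 0.497).

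Groups did not overlap for 7 of the 20 cytosolic members, 5 lower (FARSA, FARSB, QARS1, VARS1 and YARS1) and 2 higher (CARS1 and NARS1) in the nanoparticle libraries. Among all tested genes 23.2% were lower and 23.7% higher without overlap, so the count of lower members was near the background and that of higher members below it. NARS1, the asparagine enzyme, had 284 and 286 CPM in nanoparticle libraries, against 282 and 271 CPM in PBS libraries (log2 0.041, SE 0.031). CARS1, the cysteine enzyme, had 76.8 and 77.2 CPM in nanoparticle libraries and 74.9 and 75.8 CPM in PBS libraries (log2 0.031, SE 0.041). The gap between the nearest libraries of the groups was smaller than the difference between PBS libraries for NARS1, and of like size for CARS1. IARS1, the isoleucine enzyme, was level at 446.9 and 447.7 CPM in nanoparticle libraries and 446.2 and 449.4 CPM in PBS libraries.

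**Figure D2:**
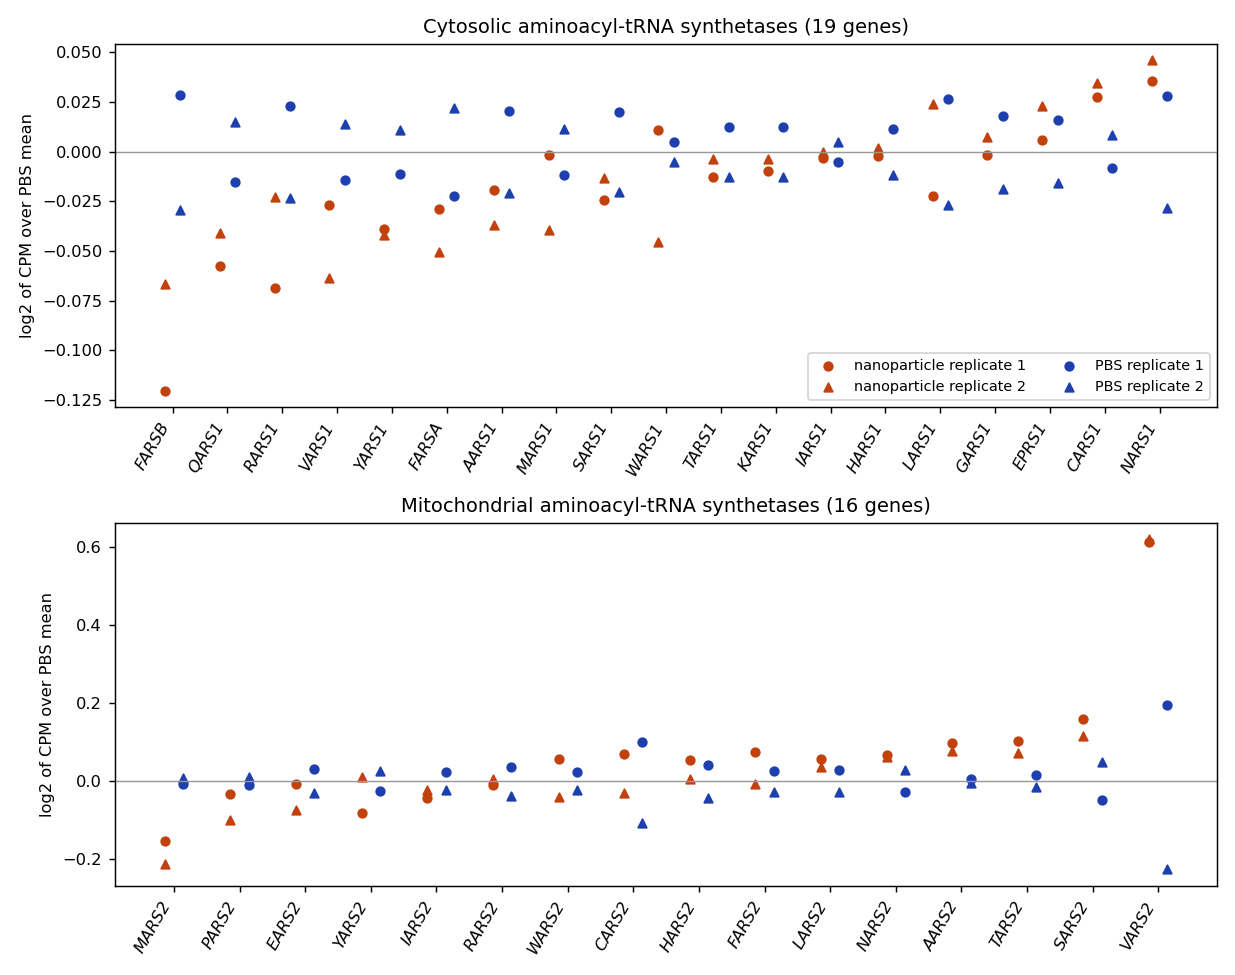
CPM of 19 cytosolic and 16 mitochondrial synthetases in each library as log2 of its ratio to the PBS mean of that gene, with nanoparticle libraries in orange and PBS libraries in blue, circles for replicate 1 and triangles for replicate 2. Cytosolic members (upper panel) stay between FARSB in nanoparticle replicate 1 and NARS1 in nanoparticle replicate 2, and mitochondrial members (lower panel, wider axis) spread further; 1 member of each group is not shown.

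The 6 cytosolic genes with the ATF4 element core in their windows had log2 fold changes of -0.028 (AARS1), 0.031 (CARS1), -0.0017 (IARS1), -0.020 (MARS1), 0.041 (NARS1) and -0.0082 (TARS1). Their median was -0.0049, and that of the 10 cytosolic genes whose windows lacked it was -0.018. The groups did not overlap for CARS1 and NARS1 alone, both higher. The 13 cytosolic synthetase genes commonly listed as ATF4 targets had a median of -0.0082, and the 7 others a median of -0.040. None of these genes passed the test. The 8 enzymes of the multisynthetase complex had a median of -0.0041 and log2 fold changes between -0.049 and 0.014, and the 12 cytosolic members outside it a median of -0.018. By catalytic class, the fold of the active site on which synthetases are divided, the median was -0.020 for 9 cytosolic class I enzymes and -0.0074 for 10 of class II, with EPRS1, which holds both, left aside.

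The mitochondrial synthetase mRNAs spread more widely, at lower counts. Their 17 log2 fold changes had a median of 0.020, with 10 above 0 and 7 below, and standard errors between 0.032 and 0.44. Without PBS replicate 2 the median was -0.013, with 7 above 0 and 10 below, and without nanoparticle replicate 2 it was 0.058, so the sign of the median depended on PBS replicate 2. The 95% intervals of 12 lay within 0.2 of 0. Groups did not overlap for 9 members, 6 higher (AARS2, LARS2, NARS2, SARS2, TARS2 and VARS2) and 3 lower (MARS2 and PARS2 among them) in the nanoparticle libraries, against the 23.7% and 23.2% of all tested genes given above. For the 15 members with a mean of at least 5 CPM the median was 0.0088 and the log2 fold changes ran from -0.18 to 0.087.

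MARS2, the mitochondrial methionine enzyme (chromosome 2, 197705369 to 197708387, plus strand, GRCh38), had the smallest p of all 37. It stood at 22.02 and 21.16 CPM in nanoparticle libraries, against 24.4 and 24.6 CPM in PBS libraries. The gap between the groups was larger than the difference within either group. The log2 fold change was -0.18 (SE 0.068, 95% interval -0.32 to -0.042, edgeR adjusted p = 0.164), and it ran from -0.21 to -0.15 over the alternatives without passing. Its cytosolic counterpart MARS1 stood at 342 and 333 CPM in nanoparticle libraries and 339.9 and 345 CPM in PBS libraries, with overlap. MARS1 shares 12.4% of its exon bases with genes on the opposite strand, among them DDIT3, and it is not stated whether the counting used strand.

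TARS2 and AARS2, the mitochondrial threonine and alanine enzymes, were the mitochondrial members with the next smallest p, and both lay higher with nanoparticles. TARS2 had 69.99 and 68.55 CPM in nanoparticle libraries and 65.9 and 64.5 CPM in PBS libraries (log2 0.087, SE 0.043, edgeR adjusted p = 0.313). AARS2 had 64.1 and 63.2 CPM in nanoparticle libraries and 60.2 and 59.8 CPM in PBS libraries (log2 0.086, SE 0.044, edgeR adjusted p = 0.336). In both genes the replicates lay closer to each other than to the other group.

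HARS1 and HARS2, read from the shared stretch shown above, were both level. HARS1 had 205 and 206 CPM in nanoparticle libraries and 207 and 204 CPM in PBS libraries, with a 95% interval of the log2 fold change of -0.067 to 0.067. HARS2 had 58.4 and 56.5 CPM in nanoparticle libraries and 58.0 and 54.6 CPM in PBS libraries, with an interval of -0.070 to 0.13. Values of the groups overlapped in both. In GENCODE 29 the exons of these genes overlap each other and further neighbours, over 8.38% of the exon bases of HARS1 and 11.7% of those of HARS2 on the opposite strand, so reads there may have been set aside or shared.

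VARS2, the mitochondrial valine enzyme (chromosome 6, 30908242 to 30926459, GRCh38), had the largest log2 fold change (0.61, SE 0.44, 95% interval -0.31 to 1.53, edgeR adjusted p = 0.55) and the fewest counts. It had 12 and 12 counts in nanoparticle libraries, against 8 and 6 counts in PBS libraries, which leaves its direction unresolved at this depth. SARS2, the mitochondrial serine enzyme, had 87 and 84 counts in nanoparticle libraries and 67 and 72 counts in PBS libraries (3.48 and 3.37 CPM against 3.01 and 3.22 CPM; log2 0.14, SE 0.16). In GENCODE 29, 46.2% of the exon bases of SARS2 are also exons of another gene model on the same strand, and for VARS2 the share is 22%, where GTF2H4 overlaps it. The part of these overlaps in the low counts was not tested.

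**Figure D3:**
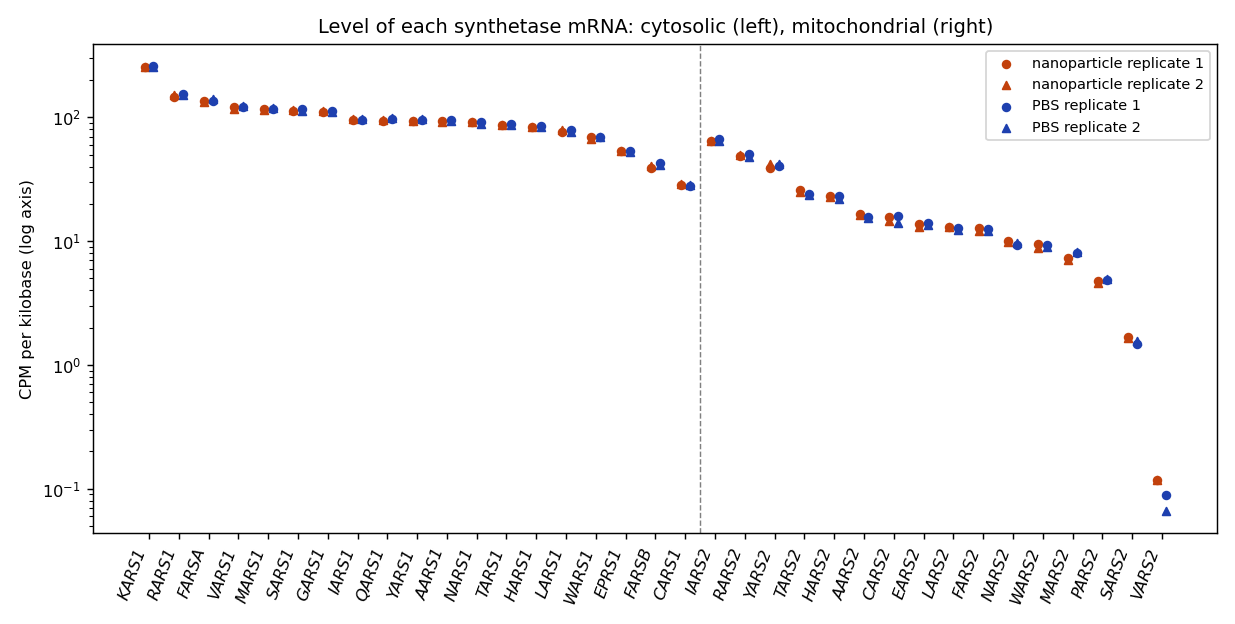
Level of 19 cytosolic and 16 mitochondrial synthetase mRNAs in each library as CPM per kilobase of the principal transcript, on a log axis, ordered within the cytosolic (left) and mitochondrial (right) enzymes; nanoparticle libraries are orange and PBS libraries blue. Levels span 28.4 to 256 among cytosolic members and 0.0975 to 65.2 among mitochondrial members, and the libraries of a gene nearly coincide except for VARS2.

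Levels were compared between genes per kilobase of the principal transcript, as CPM per kilobase averaged over the 4 libraries. KARS1, the lysine enzyme that serves both compartments, was the most abundant at 256, which was 1.70 times the next, RARS1 at 150.3, followed by FARSA at 136. The lowest cytosolic levels were those of EPRS1 at 53.3, FARSB at 40.9 and CARS1 at 28.4. Between these ends the order was not resolved, since 8 of 19 neighbouring pairs had overlapping library values, among them IARS1 (96.1) and QARS1 (96.0). Among mitochondrial enzymes IARS2 was highest at 65.2, RARS2 stood at 49.4, and PARS2 (4.77), SARS2 (1.59) and VARS2 (0.0975) were lowest.

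For 14 amino acids the rule holds a separate gene for each compartment. In all 14 the cytosolic gene had the higher level per kilobase, in each of the 4 libraries. The ratio of cytosolic to mitochondrial level was 1.47 for isoleucine (IARS1 over IARS2), 3.71 for histidine, whose genes share the stretch printed above, and 15.3 for methionine, the largest ratio apart from serine and valine, where SARS2 and VARS2 had the overlapping gene models described above. Summed over members, cytosolic synthetases took 5849.9 and 5858.2 CPM in nanoparticle libraries, against 5951 and 5893 CPM in PBS libraries. The nanoparticle mean differed from the PBS mean by -1.14%, and the groups did not overlap in this sum. The mitochondrial sum was 1017 and 1015 CPM in nanoparticle libraries and 1030.3 and 1013.7 CPM in PBS libraries, where the groups overlapped. These sums were not tested.

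Fold change went with transcript length across the transcriptome (Spearman's rank correlation 0.42 over 11078 genes above 5 CPM, which share libraries and are not independent). The principal transcripts of the members had a median of 2998.5 bases for cytosolic and 2729 bases for mitochondrial enzymes, close to the 2835 bases of all tested genes. After removal of the length trend the medians of the log2 fold change were -0.012 for cytosolic and 0.038 for mitochondrial members, and no member passed. The GC content of the principal transcripts had a median of 50.2% for cytosolic and 50.8% for mitochondrial members, against 48.7% for all tested genes.

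**Figure D4:**
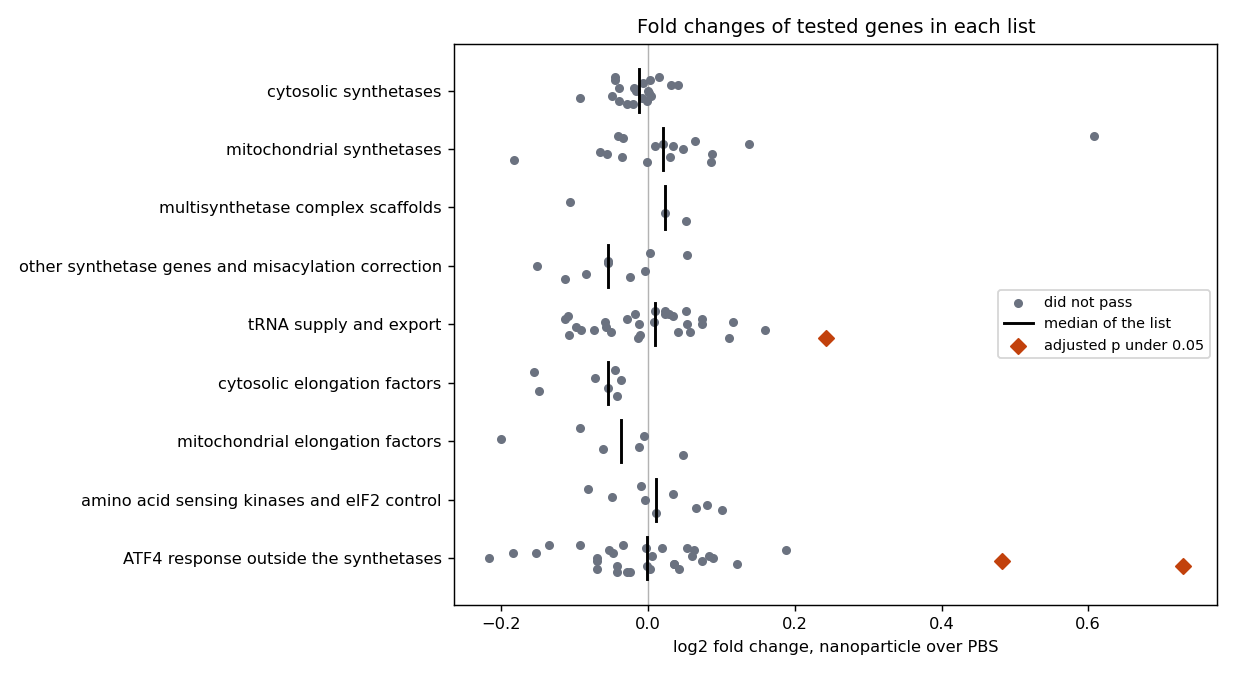
Log2 fold change, nanoparticle over PBS, of every tested gene in the synthetase groups and in lists of related genes; each point is 1 gene, black bars are medians of the lists and orange diamonds are genes with an edgeR adjusted p under 0.05. The genes that passed are BDP1 in tRNA supply, and CTH and SLC7A11 in the ATF4 response. All tested genes in the list of cytosolic elongation factors, which includes the kinase EEF2K, lie below 0.

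The related genes were read the same way. Of the 3 scaffolds of the multisynthetase complex none passed. AIMP2 stood at 89.2 and 83.0 CPM in nanoparticle libraries, against 93.1 and 92.3 CPM in PBS libraries (log2 -0.11, SE 0.042, edgeR adjusted p = 0.192), and AIMP1 and EEF1E1 had log2 fold changes of 0.052 and 0.022 with overlapping groups. Of 9 tested genes for other charging steps and for the removal of wrongly charged tRNA none passed, with a median of -0.054. Those with the smallest p were DTD1, which removes D-amino acids from tRNA (log2 -0.11, SE 0.065), and SEPSECS, which makes selenocysteine on its tRNA (log2 -0.15, SE 0.088). TARS3, a further cytosolic threonine synthetase outside the rule, had a log2 fold change of -0.025 (SE 0.070).

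Of 30 genes for tRNA transcription, processing and export 1 passed, against 2.58% of all genes. It was BDP1, a subunit of the factor TFIIIB that places RNA polymerase III on tRNA genes, which rose to 42.6 and 46.7 CPM in nanoparticle libraries, against 38.0 and 37.4 CPM in PBS libraries (log2 0.24, SE 0.056, edgeR adjusted p = 0.0231). With the length trend removed its log2 fold change was 0.15 (adjusted p = 0.208), and with length and GC trends removed 0.13 (adjusted p = 0.249). By DESeq2 the fold was the same and the call was lost (log2 0.24, adjusted p = 0.275), as it was without a low-count filter in edgeR (log2 0.25, adjusted p = 0.545). Without nanoparticle replicate 2 it was 0.18 (adjusted p = 0.336), and it did not pass without PBS replicate 1 (0.503) or PBS replicate 2 (0.474), when no gene in the transcriptome did. XPOT, the nuclear exporter of tRNA, had 321 and 325 CPM in nanoparticle libraries and 310.4 and 304 CPM in PBS libraries (log2 0.073, SE 0.030, edgeR adjusted p = 0.21).

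All 7 tested genes in the list of cytosolic elongation factors, which includes the kinase EEF2K, lay below 0. Their median log2 fold change was -0.055, and none passed. Groups did not overlap for 6 of them, EEF2K included, all lower, against 23.2% of all tested genes. By edgeR 3 had an unadjusted p under 0.05, EEF2K again included, against 16.8% of all tested genes. Their principal transcripts had a median of 2378 bases and 59.9% GC, against 2835 bases and 48.7% for all tested genes. Whether length or GC had a part in these values was not tested. EEF2K, the kinase that inhibits the translocation factor eEF2, had 30.5 and 29.3 CPM in nanoparticle libraries and 34.6 and 31.6 CPM in PBS libraries (log2 -0.15, SE 0.062, edgeR adjusted p = 0.22). EEF1A1, which carries charged tRNA to the ribosome, had 3696.8 and 3635.3 CPM in nanoparticle libraries, against 3696.0 and 3854.1 CPM in PBS libraries (log2 -0.042, SE 0.018, edgeR adjusted p = 0.243). EEF1G, a subunit of its exchange factor, is listed at 0 in every library. Its locus is marked in GENCODE 29 as overlapping another gene, and reads on more than 1 gene were set aside, so the 0 does not show that the gene was silent. Of 6 mitochondrial elongation and initiation factors none passed, and TUFM, the mitochondrial carrier of charged tRNA, had the smallest p (log2 -0.062, SE 0.029, edgeR adjusted p = 0.287), ahead of GFM1 (log2 0.048, SE 0.036).

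None of 9 genes for the sensing of uncharged tRNA and the control of eIF2 passed (median 0.011), and 2 had an unadjusted p under 0.05, a share near the 16.8% of all tested genes. EIF2AK4, which encodes GCN2, had 137 and 140.1 CPM in nanoparticle libraries and 142 and 137 CPM in PBS libraries. GCN1, its activator, had a log2 fold change of 0.065 (SE 0.029, edgeR adjusted p = 0.245) and PPP1R15B, a phosphatase subunit that reverses the mark on eIF2, 0.10 (SE 0.046, edgeR adjusted p = 0.273). ATF4 itself had 359 and 363 CPM in nanoparticle libraries, against 342 and 351 CPM in PBS libraries (log2 0.060, SE 0.029, edgeR adjusted p = 0.302), without overlap, and its activity is set mainly by translation, which was not measured.

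Of 33 tested genes of the ATF4 response outside the synthetases 2 passed, both higher, against 1.75% of all genes that were called higher, and the list had a median of -0.0018. CTH, which makes cysteine from cystathionine, rose to 8.99 and 8.35 CPM in nanoparticle libraries, against 6.20 and 6.21 CPM in PBS libraries (log2 0.48, SE 0.11, edgeR adjusted p = 0.0231). It did not pass without any 1 of the libraries, at adjusted p values from 0.0966 without nanoparticle replicate 2 to 0.502 without PBS replicate 1, with log2 fold changes between 0.43 and 0.54. The call was also lost by DESeq2 (log2 0.48, adjusted p = 0.437) and without a low-count filter in edgeR (log2 0.49, adjusted p = 0.544). The other gene, the cystine transporter SLC7A11, had 14.2 and 13.8 CPM in nanoparticle libraries and 9.52 and 7.38 CPM in PBS libraries (log2 0.73, SE 0.11, edgeR adjusted p = 0.000555). It did not pass without PBS replicate 1 (log2 0.92, adjusted p = 0.502) or PBS replicate 2 (log2 0.56, adjusted p = 0.47), when no gene did, nor without a low-count filter (log2 0.74, adjusted p = 0.544). Both are genes of cysteine supply, while CARS1, the synthetase that uses cysteine, had the log2 fold change of 0.031 given above. Of the 33 log2 fold changes 16 were above 0 and 17 below, among them TRIB3 at 0.0022, DDIT3 at -0.043 and CEBPB at -0.22 (edgeR adjusted p = 0.118). ASNS, also in this list, had only 13 and 15 counts in nanoparticle libraries and 13 and 10 counts in PBS libraries. Its log2 fold change of 0.12 (SE 0.38) leaves its direction unresolved at this depth.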

How the data were processed

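Per the labels' protocols, 300 ng of total RNA went into each stranded mRNA library. The deposited files hold raw read counts for each Ensembl gene, with a file for each library. Per the submitters' processing notes, STAR 2.7.6a and HTSeq 2.0.2 were used with GRCh38; no source used here gives the annotation release or strand setting. Rows for reads given to no gene (14.3% and 13.7% of reads with nanoparticles, 14.8% and 14.5% with PBS) were left out. A gene name table supplied symbols; gene models, principal transcript lengths and overlaps came from GENCODE 29.

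Genes were filtered with filterByExpr, scaled by TMM and tested with edgeR 4.0.16 (glmQLFit, glmQLFTest, two-sided, Benjamini-Hochberg over all genes, threshold 0.05); standard errors came from the coefficient and its F statistic, intervals from the t distribution. CPM are counts over the scaled library size. The procedure was tested on simulated data. Alternatives were other scalings, other count filters, DESeq2 1.42.0, limma-voom 3.58.1, a replicate block, removal of length and GC trends, omission of mitochondrially encoded genes, and omission of each library in turn. The members and lists were chosen with earlier results of these data known. Full values are given for the 4 members of each group with the smallest p, except for items not reported here, HARS1 and HARS2, the extremes of level, the 2 genes of smallest p or those that passed in each list; VARS2, AARS1, IARS1, MARS1, CARS1, NARS1, TARS1, FARSA and single genes of the lists were added after their values were seen.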

Additional observations from a re-analysis of the deposited data

How the results depend on the processing

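No synthetase passed under any of 15 alternatives, and the cytosolic median log2 fold change stayed between -0.025 and -0.0031. The mitochondrial median was between 0.0071 and 0.038, and between -0.013 (without PBS replicate 2) and 0.058 (without nanoparticle replicate 2) when 1 library was left out, a range wider than the spread between replicates. The 407 genes called over the transcriptome became 90 by DESeq2, 227 with the length trend removed, 264 with length and GC trends removed, 0 without a low-count filter (2297 at an unadjusted p under 0.05), and 0 to 200 without 1 library. It was 0 without PBS replicate 1 (1562 at an unadjusted p under 0.05) and without PBS replicate 2 (1672), 200 without nanoparticle replicate 1 and 76 without nanoparticle replicate 2. Under upper-quartile scaling the calls split into 223 higher and 190 lower, against 276 and 131. The log2 fold change of HARS1, near 0, changed sign to 0.0043 with total counts, 0.0093 without a low-count filter, 0.021 with the length trend and 0.023 with length and GC trends removed, and ran from -0.013 to 0.0098 without 1 library. That of HARS2 ran from -0.013 to 0.072 without 1 library. VARS2 was tested in 14 of the 15 alternatives, since the filter of a mean of at least 50 counts left it out. Wherever they were tested, FARSB, VARS1, QARS1, RARS1, MARS2, TARS2, AARS2 and VARS2 kept their sign. The signs of AARS1, CARS1, FARSA, IARS1, MARS1, NARS1 and TARS1 were not followed in this way. The replicate numbers are not stated to mark a pair, and deviations of same-numbered libraries were nearly uncorrelated across genes (Pearson's r 0.036). With the replicate block 759 genes passed, none of them a synthetase. BDP1 passed in 8 of 15 alternatives, CTH in 9 and SLC7A11 in 12. Depth limits SARS2 and VARS2 most. With 2 libraries per group, the causes of these shifts were not tested.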
